A study of Canis lupus familiaris with 9 samples.

Results

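Selenoproteins and genes of selenium handling were followed across 9 arrays of cultured dog cells (Canis lupus familiaris). The group was a list of 10 genes: SELENOP, GPX1, GPX3, GPX4, TXNRD1, TXNRD2, SELENOS, SELENOK, DIO2 and SEPSECS. The members were chosen by the signal of SELENOP, which read high in 2 of the 3 kinds of culture on these same arrays, and because the serum-free supplement used for the skin-derived cells holds selenium. Of the 10 genes, 9 were measured here, among 15947 genes with a named probe set. GPX4, a glutathione peroxidase that repairs oxidised membrane lipids, carried no named probe set and was not analysed here. A gene with several probe sets was followed through the probe set of highest average signal, which among the members mattered for SELENOK alone.

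The study placed 3 arrays in each of 3 groups. Fibroblast arrays came from dissociated dog skin cells kept in DMEM/F12 with 10% fetal bovine serum. SKN arrays came from neural precursors raised from dog skin in serum-free DMEM/F12 with 20 ng/mL EGF, 40 ng/mL FGF and 2% B-27, first as floating spheres. Brain arrays came from neural precursors of dog brain, for which the labels at hand state no medium. Fibroblast and SKN differed in medium as well as in cell type. In none of the comparisons can an effect of the medium and one of the cell type be told apart. The dogs were community animals undergoing routine surgery, no age, breed or genotype is given, and no culture was treated before RNA extraction. Whether replicates were separate dogs or separate cultures is not stated, and the p-values therefore reflect only the variation among these 9 samples, which may be technical. In bulk samples such as these, fewer cells of a type and less RNA per cell cannot be told apart.

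Selenoproteins carry selenocysteine, an amino acid that is inserted at a UGA codon when the messenger RNA also holds a hairpin called the SECIS element. SEPSECS makes the last step of selenocysteine synthesis on its own transfer RNA. SELENOP is a secreted protein that carries selenium in plasma from the liver to brain and testis, where the receptor LRP8 takes it up. The glutathione peroxidases (GPX) remove peroxides, the thioredoxin reductases (TXNRD) keep thioredoxin reduced, and SELENOS and SELENOK sit in the membrane of the endoplasmic reticulum (ER), where they bind the machinery that removes misfolded proteins. DIO2 converts the prohormone thyroxine to active thyroid hormone.

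Values below are log2 signals, so that a difference of 1 unit is 2-fold, and the table holds no calls of which probe sets were above background. A low reading is therefore a low signal and no proof of absence. The array medians lay between 4.71 and 4.79, and arrays of the same group correlated at 0.978 to 0.985 across probe sets. Genes typical of fibroblasts (11 of 11 measured) averaged 9.91 to 10.24 in Fibroblast, 10.75 to 11.01 in SKN and 5.03 to 6.56 in Brain, where Brain 3 held the highest value. Pericyte and smooth muscle markers also read higher in Brain 3 (6.55) than in Brain 1 (5.08) and Brain 2 (5.16). Crest and Schwann cell markers (6 of 8 measured) averaged 8.87 to 9.06 in Brain, against 4.35 to 4.48 in SKN and 4.50 to 5.83 in Fibroblast, where Fibroblast 1 was highest. Neural precursor markers (7 of 9 measured) averaged 4.64 to 4.97 in Brain, 4.40 to 4.73 in Fibroblast and 4.27 to 4.34 in SKN, so that SKN, labelled as precursors, lay below Fibroblast. Of these, NES averaged 8.34 in Brain, 6.65 in Fibroblast and 6.67 in SKN, and SOX2 averaged 6.62, 5.17 and 5.25. SOX2 read 7.36 and 7.16 in Brain 1 and Brain 2 but 5.34 in Brain 3, within the Fibroblast range of 5.00 to 5.35. PAX6 also had a higher mean in Brain than in Fibroblast (6.08 against 5.81). FABP7, MSI1, PROM1 and SOX1 had lower means in Brain than in Fibroblast. Astrocyte markers (7 of 7 measured) averaged 4.16 to 4.42 in Brain, below the 4.69 to 4.93 of Fibroblast and the 4.93 to 5.17 of SKN. The list was mixed. SLC1A3 and GJA1 were called lower in Brain than in Fibroblast, and SLC1A2 and ALDH1L1 also had lower means there. AQP4 averaged 5.12 in Brain, 2.79 in Fibroblast and 2.69 in SKN, GFAP 4.90, 4.50 and 4.47, and S100B 4.39, 4.32 and 4.20. Leukocyte and microglial markers averaged 3.18 to 3.71 on every array, endothelial markers 3.77 to 4.08 and keratinocyte markers 2.93 to 3.23.

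SELENOP was the member with the widest range. It read 9.06, 9.31 and 9.60 in the SKN arrays, 7.91, 8.40 and 10.13 in the Brain arrays, and 4.48, 3.12 and 4.84 in the Fibroblast arrays. All 6 SKN and Brain arrays lay above all 3 Fibroblast arrays, while the SKN and Brain arrays overlapped. The mean was 9.32 ± 0.27 (SD, n = 3) in SKN, 8.81 ± 1.17 in Brain and 4.14 ± 0.90 in Fibroblast. The difference from Fibroblast was 5.18 ± 0.60 log2 units (SE of the fit) in SKN, or 36.2-fold in signal, and 4.66 ± 0.60 in Brain, or 25.4-fold. Both comparisons use the same Fibroblast arrays. Since the genes were picked for this level of SELENOP, these 2 differences are a description and carry no test.

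The order of SKN above Brain for SELENOP did not exceed the spread between arrays. Their difference was 0.51 ± 0.60, and Brain 3 read above every SKN array. Since the high SELENOP of both groups chose the list, this difference too is a description and carries no test. The high SELENOP value of Brain 3 stood beside its higher fibroblast marker mean of 6.56, against 5.04 and 5.03 in Brain 1 and Brain 2. These markers were mixed in Brain 3. COL1A1 (8.25), COL3A1 (7.79), LUM (6.44) and DCN (6.22) read well above the other Brain arrays. POSTN (3.05), FAP (3.13) and DPT (4.53) stayed low, and FBLN1 and THY1 lay between Brain 1 and Brain 2. Without Brain 3 the SELENOP difference of Brain minus Fibroblast was 4.01. The part of the raised markers' source in it was not tested. Across groups, fibroblast marker means of 9.91 to 10.24 stood beside the low SELENOP of Fibroblast, and 10.75 to 11.01 beside the high SELENOP of SKN.

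**Figure D1:**
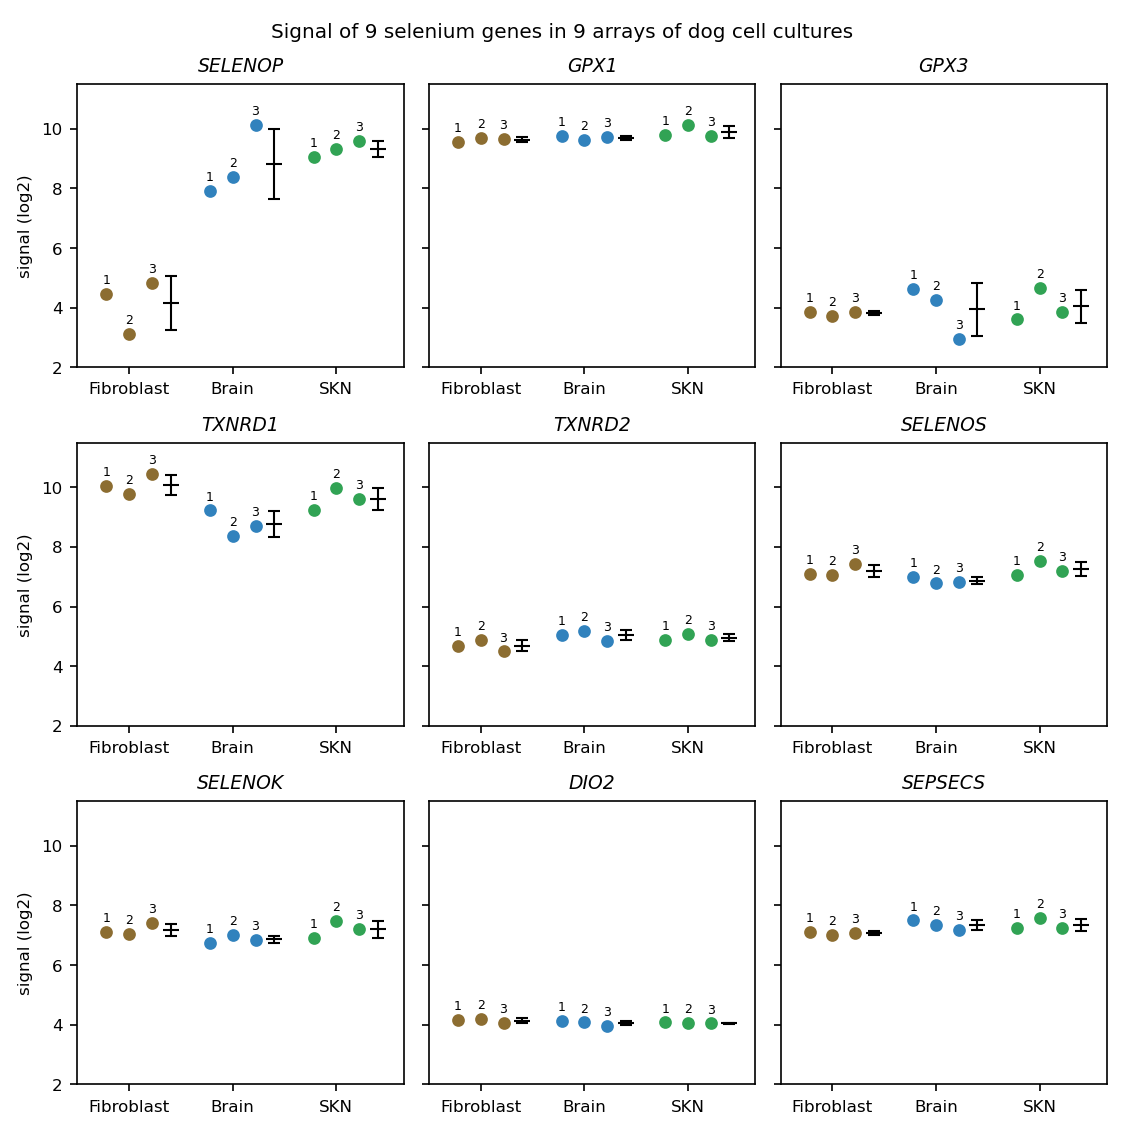
Signal (log2, vertical axis) of the 9 measured genes in each of the 9 arrays, grouped as Fibroblast, Brain and SKN; numbers are the array's number in its group, and the black bar beside each group is its mean with the SD of 3 arrays. SELENOP lies at 3.12 to 4.84 in Fibroblast and at 7.91 or above in the other arrays, while the other genes span much narrower ranges.

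Neither of the measured glutathione peroxidases among the members was called in any comparison. GPX1, the abundant cytosolic enzyme, read 9.54, 9.71 and 9.66 in Fibroblast, 9.75, 9.63 and 9.71 in Brain, and 9.80, 10.12 and 9.76 in SKN. The SKN arrays lay just above all others, by 0.26 ± 0.12 over Fibroblast (95% interval -0.02 to 0.53, limma adjusted p = 0.334) and by 0.19 ± 0.12 over Brain (adjusted p = 0.351). Over all genes, groups did not overlap in 26.7% for SKN minus Fibroblast and in 40% for SKN minus Brain. GPX3, the secreted plasma enzyme, read 3.87, 3.74 and 3.87 in Fibroblast, 4.63, 4.25 and 2.95 in Brain, and 3.61, 4.66 and 3.87 in SKN. Its groups overlapped throughout, and the interval of SKN minus Fibroblast, from -0.75 to 1.18, leaves a change of 2-fold upward within reach of these data (adjusted p = 0.843).

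TXNRD1, the cytosolic thioredoxin reductase, was the member that was called. It read 10.03, 9.77 and 10.45 in Fibroblast, 9.22, 8.38 and 8.71 in Brain, and 9.24, 9.96 and 9.60 in SKN. Every Brain array lay below every Fibroblast and every SKN array, and SKN overlapped Fibroblast. Over all genes, groups did not overlap in 44.3% for Brain minus Fibroblast and in 40% for SKN minus Brain. TXNRD1 was lower in Brain than in Fibroblast (-1.31 ± 0.27, 2.48-fold, limma adjusted p = 0.0109, lower in 3 of 3 Brain arrays). The call was kept without any single array (adjusted p 0.0082 to 0.0402), but not without Fibroblast 1 and Brain 3 together (-1.31, adjusted p = 0.0816). Fibroblast 1 had the highest crest and Schwann cell marker mean of its group, and Brain 3 the highest fibroblast marker mean of its group.

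Between SKN and Brain the TXNRD1 difference of 0.83 ± 0.27 missed the threshold (95% interval 0.21 to 1.45, limma adjusted p = 0.0774). It passed without Brain 1 (1.05, adjusted p = 0.0383), with array weights (0.92, adjusted p = 0.0226) and when probe sets with a lower mean were left out (adjusted p = 0.0463). Between SKN and Fibroblast the difference was -0.48 ± 0.27 (adjusted p = 0.434). TXNRD2, the mitochondrial reductase, did not follow TXNRD1. It read 4.69, 4.89 and 4.50 in Fibroblast, 5.05, 5.19 and 4.86 in Brain, and 4.89, 5.10 and 4.89 in SKN, so that its highest mean was in Brain. The Brain minus Fibroblast difference of 0.34 ± 0.14 was not called (limma adjusted p = 0.126).

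SELENOS and SELENOK, the selenoproteins of the ER membrane, both had their lowest mean in Brain. SELENOS read 7.10, 7.05 and 7.41 in Fibroblast, 7.005, 6.78 and 6.82 in Brain, and 7.04, 7.52 and 7.20 in SKN. SELENOK read 7.10, 7.05 and 7.41 in Fibroblast, 6.74, 6.998 and 6.85 in Brain, and 6.89, 7.47 and 7.22 in SKN. For both genes the Brain arrays lay below all Fibroblast arrays, and the groups did not overlap in 44.3% of all genes in that comparison. Neither difference was called: Brain minus Fibroblast was -0.32 ± 0.16 for SELENOS (limma adjusted p = 0.192) and -0.33 ± 0.17 for SELENOK (adjusted p = 0.221). SKN minus Brain was 0.39 ± 0.16 for SELENOS (adjusted p = 0.141) and 0.34 ± 0.17 for SELENOK (adjusted p = 0.245). The second probe set of SELENOK gave a Brain minus Fibroblast difference of the other sign, also not called (0.08 ± 0.18, adjusted p = 0.798).

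SEPSECS, the selenocysteine synthase, read 7.12, 7.01 and 7.09 in Fibroblast, 7.50, 7.36 and 7.17 in Brain, and 7.23, 7.57 and 7.24 in SKN. All 6 SKN and Brain arrays lay above the Fibroblast arrays, though by small amounts. Over all genes, groups did not overlap in 26.7% for SKN minus Fibroblast and in 44.3% for Brain minus Fibroblast. The difference was 0.27 ± 0.13 in SKN (95% interval -0.03 to 0.57, limma adjusted p = 0.346) and 0.27 ± 0.13 in Brain (adjusted p = 0.194), and neither was called. DIO2, the thyroxine deiodinase that in brain is known from astrocytes, read between 3.97 and 4.20 on all 9 arrays. SKN minus Fibroblast was -0.08 ± 0.09 log2 units, and the interval of SKN minus Brain ran from -0.21 to 0.21 (limma adjusted p = 0.994).

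**Figure D2:**
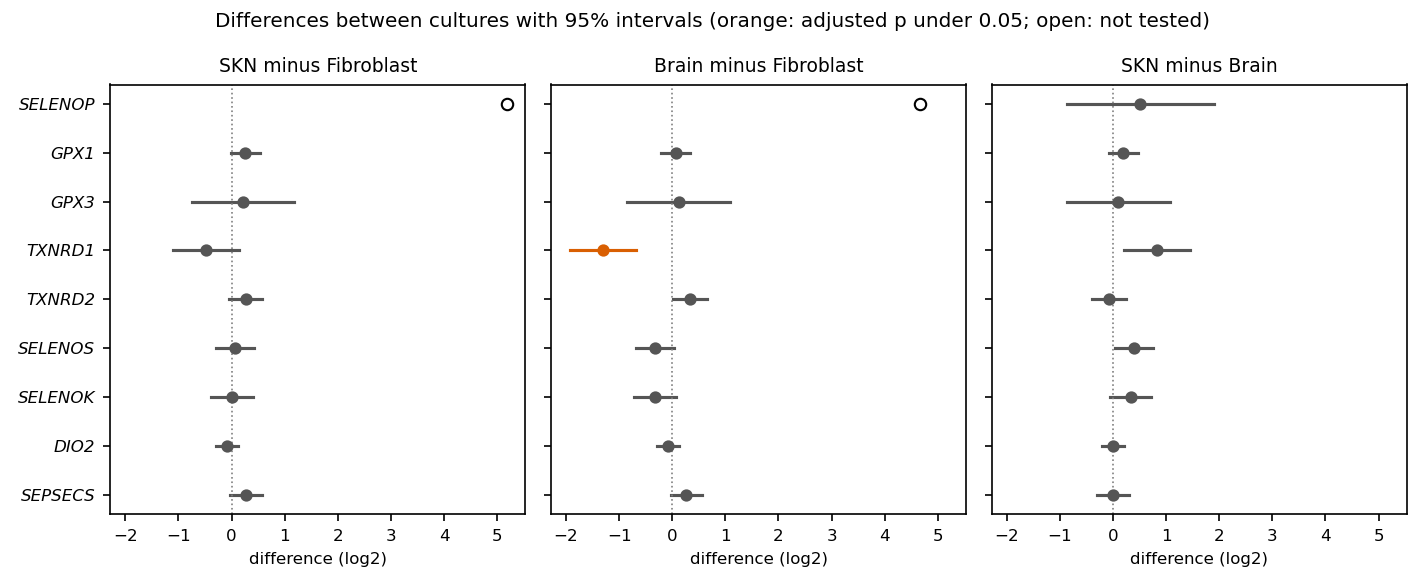
Differences in log2 signal (horizontal axis) for the 9 measured genes in the 3 comparisons, with 95% intervals from limma over 3 arrays a group; orange marks an adjusted p under 0.05 and open circles mark SELENOP where it was not tested. TXNRD1 in Brain minus Fibroblast, at -1.31, is the called difference, and most other intervals cross 0. The SELENOP interval in SKN minus Brain rests on levels by which the list was chosen and is a description only.

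With SELENOP left out, limma called 0 of the 8 tested members between SKN and Fibroblast (0 at an unadjusted p under 0.05), where 4.55% of all genes were called, 2.45% higher and 2.1% lower. Between Brain and Fibroblast it called 1 of 8, TXNRD1, where 27% of all genes were called and 13.2% were called lower. The groups did not overlap in 44.3% of all genes in that comparison, in 26.7% for SKN minus Fibroblast and in 40% for SKN minus Brain. Between SKN and Brain, again with SELENOP left out, limma called 0 of the same 8, where 22.6% of all genes were called. At an unadjusted p under 0.05 were 2 of the 8 (TXNRD1 and SELENOS), against 5743 of all 15947 genes. The median difference of the 8 members was 0.14 for SKN minus Fibroblast and -0.01 for Brain minus Fibroblast, against -0.04 and -0.06 over all genes. For SKN minus Brain the median was 0.19, against 0.01 over all genes. SELENOP, whose level chose the list, enters that 0.19.

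Within SKN the members shared a high array. SKN 2 gave the highest SKN reading for 7 of the 9 members (GPX1, GPX3, TXNRD1, TXNRD2, SELENOS, SELENOK and SEPSECS), and SKN 1 the lowest for 6 of 9. Over all genes SKN 2 was the highest of the SKN arrays for 35.1% and SKN 1 the lowest for 40.5%. Within Brain, Brain 1 was the highest for 6 of 9 members and for 39.6% of all genes, but SELENOP was lowest there. In SKN the highest reading of SELENOP was in SKN 3 and that of DIO2 in SKN 1, while SELENOP was lowest in SKN 1. Within Fibroblast, Fibroblast 2 was the lowest for 6 of 9 members and for 31.8% of all genes.

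The remaining selenoproteins were described from a list of 16 genes, of which 15 were measured. Between Brain and Fibroblast 2 were higher, 2 lower and 11 not called. These 4 of 15 are near the share of all genes, of which 13.8% were called higher and 13.2% lower there. Between SKN and Brain 1 was higher and 1 lower, where 10.9% of all genes were called higher and 11.7% lower. Between SKN and Fibroblast limma called 0 (4.55% of all genes), with 3 at an unadjusted p under 0.05 (3197 of all 15947 genes). SELENOM, a thioredoxin-like selenoprotein of the ER, read 9.57, 9.06 and 9.52 in Fibroblast, 4.52, 4.76 and 6.53 in Brain, and 8.98, 8.97 and 9.39 in SKN. Brain lay far below both skin-derived cultures, and Brain 3, the Brain array with the highest fibroblast marker mean, lay closest to them. SELENOM was lower in Brain than in Fibroblast (-4.11 ± 0.47, limma adjusted p = 6.5e-04) and higher in SKN than in Brain (3.84 ± 0.47, adjusted p = 9.1e-04). Its calls were kept without any single array and without Fibroblast 1 and Brain 3 together.

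SELENOH, a nuclear selenoprotein, went the other way. It read 7.37, 6.82 and 7.27 in Brain, 6.34, 6.11 and 5.93 in Fibroblast and 6.24, 6.29 and 6.33 in SKN. SELENOH was higher in Brain than in Fibroblast by 1.03 ± 0.17 (limma adjusted p = 0.00328) and lower in SKN than in Brain (-0.87 ± 0.17, adjusted p = 0.00816). SELENOI, an enzyme of phosphatidylethanolamine synthesis, was lower in Brain than in Fibroblast (-0.59 ± 0.15, adjusted p = 0.0228), and SELENON, an ER protein linked to calcium handling and muscle disease, was higher (0.42 ± 0.12, adjusted p = 0.0414). The SELENOI call was lost in 4 of the 9 removals of 1 array (without Fibroblast 2 or 3 or Brain 2 or 3, adjusted p up to 0.0742) and without Fibroblast 1 and Brain 3 together (0.0637). The SELENON call was lost in 7 of the 9, all but Fibroblast 2 and SKN 2 (adjusted p up to 0.123). It was also lost without variance moderation (0.0501), with quantile normalization (0.0527) and without Fibroblast 1 and Brain 3 together (0.237).

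MSRB1, a methionine sulfoxide reductase with selenocysteine, was singled out after its values were seen. It read 8.34, 7.67 and 8.86 in Fibroblast, 7.30, 6.94 and 6.97 in Brain, and 6.19, 7.50 and 6.66 in SKN. Both other groups lay below all Fibroblast arrays, where groups did not overlap in 26.7% (SKN) and 44.3% (Brain) of all genes. Neither difference was called: -1.51 ± 0.37 for SKN (limma adjusted p = 0.072) and -1.22 ± 0.37 for Brain (adjusted p = 0.0507). Without SKN 2 the SKN difference was -1.87 and was called (adjusted p = 0.0346), and the Brain difference was called without Fibroblast 2, SKN 1 or SKN 2 (adjusted p 0.0270 to 0.0394). Of 6 other settings, 2 called the SKN difference: array weights (0.0386) and probe sets of higher mean only (0.0434). For the Brain difference 3 of 6 did: array weights (0.0272), probe sets of higher mean only (0.0297) and quantile normalization (0.0393).

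Genes that build selenocysteine or move selenium formed a list of 18, of which 17 were measured. Between Brain and Fibroblast 6 were higher, 3 lower and 8 not called (13.8% and 13.2% of all genes), and between SKN and Brain 3 were higher, 2 lower and 12 not called (10.9% and 11.7% of all genes). Between SKN and Fibroblast 0 of 17 were called by limma (4.55% of all genes), with 2 at an unadjusted p under 0.05 (3197 of all 15947 genes). The medians of this list were 0.08, -0.03 and 0.06 in the same order of comparisons. LRP1, a large endocytic receptor of the LDL receptor family, showed the widest gap of the called genes. It read 7.55, 7.86 and 7.36 in Brain, 10.01, 10.40 and 9.86 in Fibroblast, and 10.48, 10.54 and 10.20 in SKN. LRP1 was lower in Brain than in Fibroblast (-2.50 ± 0.19, limma adjusted p = 8.4e-05) and higher in SKN than in Brain (2.82 ± 0.19, adjusted p = 3.7e-05).

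SECISBP2L, a relative of the SECIS-binding protein SECISBP2, read 8.51, 8.61 and 8.73 in Brain, 7.23, 7.18 and 7.59 in Fibroblast and 7.08, 7.37 and 7.14 in SKN. Brain stood above both skin cultures, by 1.29 ± 0.14 over Fibroblast (limma adjusted p = 5.6e-04) and with SKN minus Brain at -1.42 ± 0.14 (adjusted p = 3.1e-04). SEPHS1, a relative of the selenophosphate synthetase SEPHS2 without selenocysteine, was higher in Brain than in Fibroblast by 1.12 ± 0.16 (adjusted p = 0.00212), and SKN minus Brain was -1.06 ± 0.16 (adjusted p = 0.00299). SARS1, the enzyme that first loads the selenocysteine transfer RNA with serine, was lower in Brain than in Fibroblast (-0.95 ± 0.15, adjusted p = 0.00323). SARS1 was higher in SKN than in Brain (0.64 ± 0.15, adjusted p = 0.0219), a call lost without Brain 2, Brain 3, SKN 1 or SKN 3 (adjusted p up to 0.0851).

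LRP8, the SELENOP receptor of brain and testis, was also singled out after its values were seen. It read 5.66, 5.70 and 5.52 in Fibroblast, 6.66, 6.15 and 6.34 in Brain, and 6.94, 6.14 and 6.20 in SKN. All 6 SKN and Brain arrays lay above the Fibroblast arrays. Over all genes, groups did not overlap in 26.7% for SKN minus Fibroblast and in 44.3% for Brain minus Fibroblast. The Brain difference of 0.75 ± 0.22 was called (limma adjusted p = 0.0446) and the SKN difference of 0.80 ± 0.22 was not (adjusted p = 0.104). The Brain call of LRP8 was lost in 7 of the 9 removals of 1 array, all but SKN 1 and SKN 2 (adjusted p up to 0.127, without Brain 1). It was also lost without variance moderation (0.0940), with quantile normalization (0.0551) and without Fibroblast 1 and Brain 3 together (0.169).

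**Figure D3:**
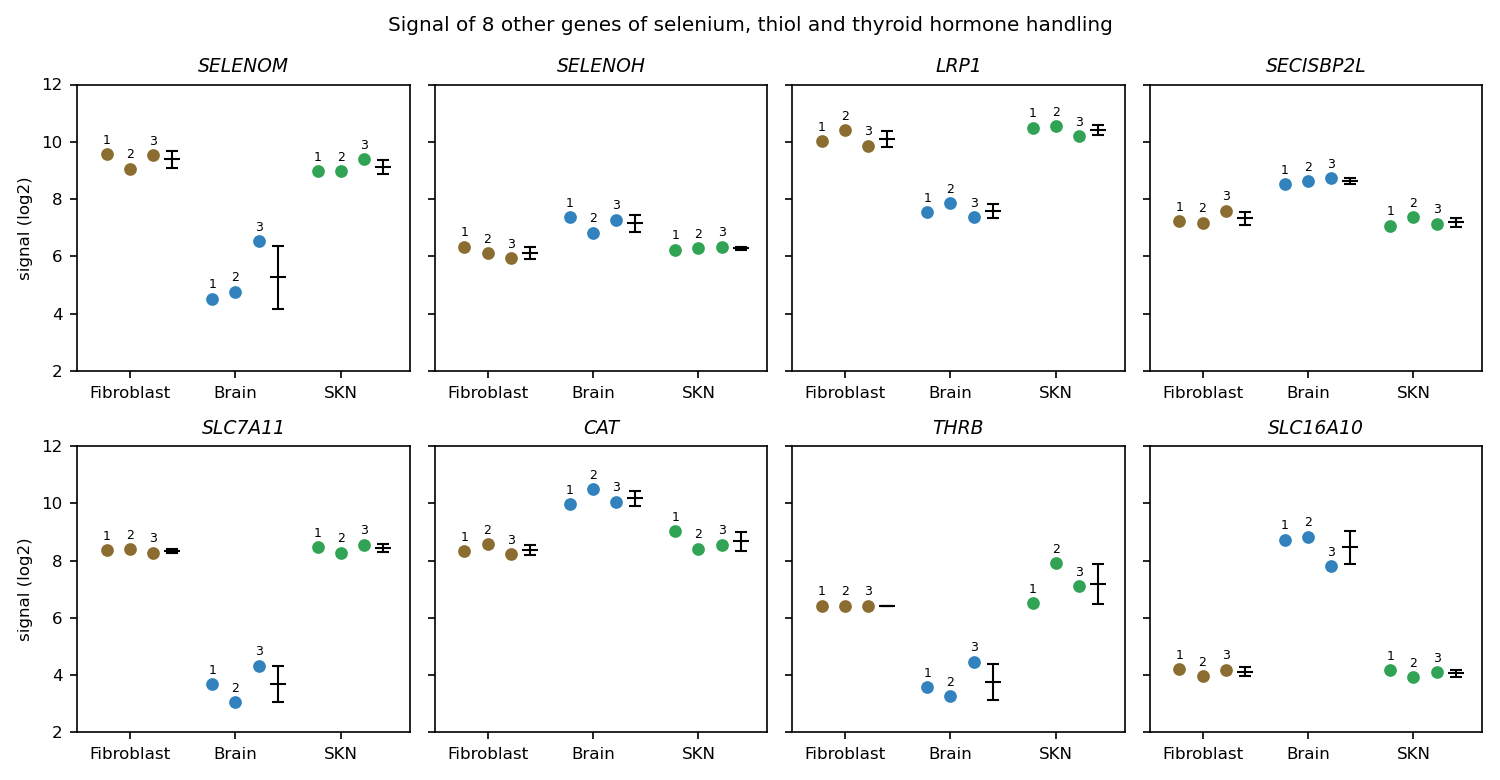
Signal (log2, vertical axis) of 8 genes outside the member list in the 9 arrays, with array numbers and, beside each group, the mean and SD of 3 arrays. SELENOM, LRP1, SLC7A11 and THRB are lower in the 3 Brain arrays than in all other arrays, and SELENOH, SECISBP2L, CAT and SLC16A10 are higher there.

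Thioredoxin, glutathione and NRF2-dependent genes surround the GPX and TXNRD enzymes, and 29 of 34 listed genes were measured. Between Brain and Fibroblast 4 were higher, 11 lower and 14 not called, with a median of -0.26, and between SKN and Brain 9 were higher, 2 lower and 18 not called, with a median of 0.21. The shares over all genes were 13.8% higher and 13.2% lower in the first comparison and 10.9% and 11.7% in the second. SKN minus Fibroblast had a median of -0.002 and 0 calls by limma, where 4.55% of all genes were called. There 9 of the 29 had an unadjusted p under 0.05, against 3197 of all 15947 genes. SLC7A11, which imports cystine for glutathione synthesis, read 3.68, 3.05 and 4.33 in Brain, 8.37, 8.40 and 8.27 in Fibroblast and 8.47, 8.27 and 8.55 in SKN. Its Brain arrays lay below all others, at -4.66 ± 0.28 against Fibroblast (limma adjusted p = 2.9e-05). TXN, thioredoxin itself and the substrate of TXNRD1, was singled out after its values were seen and was lower in Brain than in Fibroblast (-0.70 ± 0.14, adjusted p = 0.00862; 0.0785 without Fibroblast 1 and Brain 3).

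CAT, the peroxisomal enzyme that splits hydrogen peroxide, was higher in Brain, at 9.97, 10.48 and 10.06 against 8.34, 8.57 and 8.23 in Fibroblast and 9.03, 8.42 and 8.56 in SKN. It was higher in Brain than in Fibroblast by 1.79 ± 0.20 (limma adjusted p = 5.7e-04), and SKN minus Brain was -1.50 ± 0.20 (adjusted p = 0.00138). Of the methionine sulfoxide reductases without selenocysteine, MSRB2 and MSRB3 went opposite ways. MSRA, singled out after its values were seen, averaged 6.17 in Brain, 6.18 in Fibroblast and 7.07 in SKN. MSRB2, the mitochondrial form, was higher in Brain than in Fibroblast by 2.08 ± 0.21 (adjusted p = 3.5e-04), and MSRB3 was lower (-2.28 ± 0.24, adjusted p = 4.2e-04). GPX8, a glutathione peroxidase relative of the ER without selenocysteine, was lower in Brain than in Fibroblast (-1.68 ± 0.20, adjusted p = 7.9e-04) and higher in SKN than in Brain by 1.90 ± 0.20 (adjusted p = 4.2e-04).

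Of 21 genes of ER-associated degradation, the pathway that SELENOS and SELENOK bind, 19 were measured. Between Brain and Fibroblast 1 was higher, 9 lower and 9 not called, with a median of -0.37, and between SKN and Brain 5 were higher, 2 lower and 12 not called, with a median of 0.32. Over all genes 13.2% were lower in the first comparison and 10.9% higher in the second. SKN minus Fibroblast had a median of -0.09 and 0 calls by limma, where 4.55% of all genes were called. There 4 of the 19 had an unadjusted p under 0.05, against 3197 of all 15947 genes. HERPUD1, an organiser of the degradation complex, was lower in Brain than in Fibroblast (-1.41 ± 0.14, limma adjusted p = 3.2e-04) and higher in SKN than in Brain (1.29 ± 0.14, adjusted p = 4.55e-04). DERL1, a channel protein of the same complex and a partner of SELENOS, was lower as well (-0.91 ± 0.12, adjusted p = 0.00114), as were EDEM1 (-0.80 ± 0.16, adjusted p = 0.00915) and EDEM2 (-0.75 ± 0.16, adjusted p = 0.0126; 0.101 without Fibroblast 1 and Brain 3), which help to sort misfolded glycoproteins. AUP1, a lipid droplet and ER protein of the pathway, was lower in SKN than in Brain (-0.74 ± 0.16, adjusted p = 0.0138), a call lost without SKN 3 (0.0574), and UBXN8 was lower too (-0.58 ± 0.14, adjusted p = 0.0215), a call lost without Brain 1 or 2 or SKN 1 or 3 (up to 0.0645). Without Fibroblast 1 and Brain 3, limma called 3 genes of the degradation list between Brain and Fibroblast, all lower, in place of 10. Over all genes the same removal gave 2425 of 15947 called, in place of 4308.

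Genes around DIO2 that carry or read thyroid hormone numbered 17, with 15 measured. Between Brain and Fibroblast 4 were higher, 1 lower and 10 not called, with a median of 0.15, and between SKN and Brain 1 was higher, 5 lower and 9 not called, with a median of -0.30. The 5 calls of 15 between Brain and Fibroblast are near the 27% called among all genes, of which 13.8% were higher. Between SKN and Brain 22.6% of all genes were called, 10.9% higher and 11.7% lower. SKN minus Fibroblast had a median of -0.06 and 0 calls by limma, where 4.55% of all genes were called. There 2 of the 15 had an unadjusted p under 0.05, against 3197 of all 15947 genes. SLC16A10, a carrier of aromatic amino acids and thyroid hormone, read 8.73, 8.83 and 7.81 in Brain and between 3.92 and 4.22 in the 6 other arrays. It was higher in Brain than in Fibroblast by 4.34 ± 0.25 (limma adjusted p = 2.6e-05).

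The thyroid hormone receptor THRB ran opposite, at 3.57, 3.27 and 4.47 in Brain, 6.43, 6.42 and 6.43 in Fibroblast, and 6.51, 7.92 and 7.11 in SKN. THRB was lower in Brain than in Fibroblast (-2.66 ± 0.38, limma adjusted p = 0.00202) and higher in SKN than in Brain (3.41 ± 0.38, adjusted p = 5.9e-04). SLCO1C1, a thyroxine carrier of brain vessels and astrocytes, was higher in Brain than in Fibroblast by 2.24 ± 0.44 (adjusted p = 0.00808; 0.0699 without Fibroblast 1 and Brain 3). The coactivator NCOA2 was higher by 0.78 ± 0.18 (adjusted p = 0.0174), a call lost without Fibroblast 1, Fibroblast 3 or Brain 2 (adjusted p up to 0.0585). Without Fibroblast 1 and Brain 3 together, 2 of the 15 thyroid hormone genes were called between Brain and Fibroblast. Calls over all genes fell there as well, from 4308 to 2425 of 15947.

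**Figure D4:**
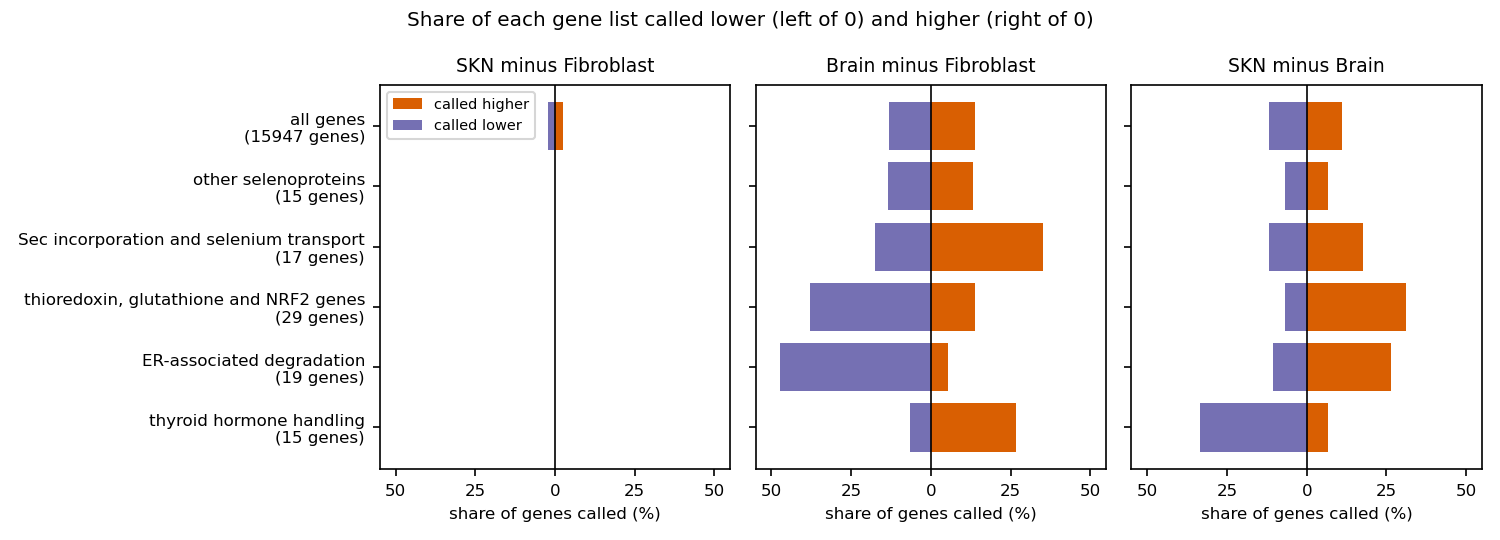
Share of each gene list (percent, horizontal axis) that limma called lower, drawn to the left of 0, or higher, drawn to the right, in the 3 comparisons, with all 15947 genes as the top bar. None of the 5 lists has a called gene in SKN minus Fibroblast, where 4.55% of all genes are called. In Brain minus Fibroblast 11 of 29 thioredoxin, glutathione and NRF2 genes and 9 of 19 ER-associated degradation genes are lower, against 13.2% of all genes.

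The genes whose signal ran most like that of SELENOP were found by centring each gene on its own mean and taking the root mean square difference over the 9 arrays. The nearest was TGFBR3, a co-receptor of TGF-beta, at 0.69 log2 units, then the monocarboxylate carrier SLC16A7 at 0.77 and the aspartoacylase ASPA at 0.84. MAOA, which degrades monoamines, lay at 0.93 and the growth factor HGF at 0.97, where the median over all other genes was 2.47. ASPA read 7.11, 3.95 and 7.38 in Fibroblast and MAOA read 6.85, 3.55 and 6.54, so that Fibroblast 2 was lowest for both, as it was for SELENOP at 3.12. In SKN and Brain, ASPA read at least 9.11 and MAOA at least 9.01. The genes were picked for likeness to SELENOP on these arrays, so such shared features come largely with the choice. These distances describe the 9 arrays and carry no test.

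**Figure D5:**
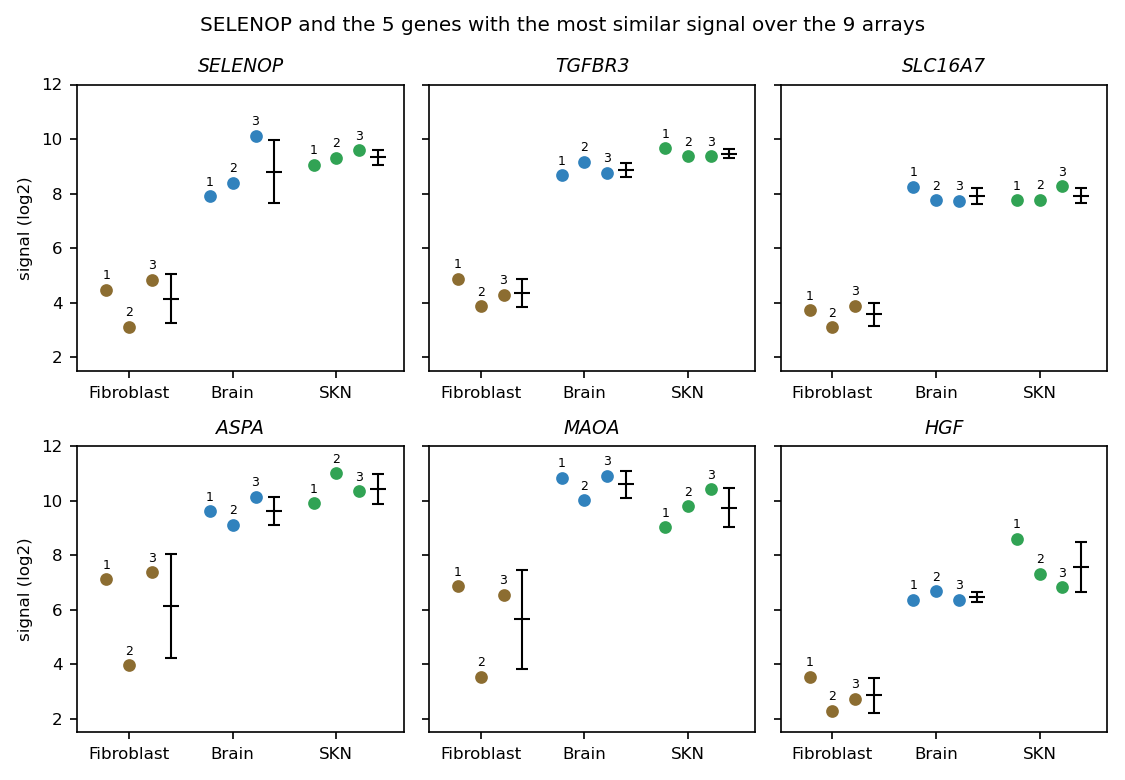
Signal (log2, vertical axis) of SELENOP and of the 5 genes nearest to it over the 9 arrays, with array numbers and, beside each group, the mean and SD of 3 arrays. In all 6 genes the 6 Brain and SKN arrays lie above the 3 Fibroblast arrays, and Fibroblast 2 is the lowest array, features that come largely with the choice of genes.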

How the data were processed

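RNA of 9 dog cell cultures was measured on Affymetrix arrays from biotinylated cRNA, per the labels' protocols. The authors deposited a single table of log2 signals, 32205 probe sets by 9 samples. Per the submitters' processing notes MAS5, RMA and Partek were used, with no role, order or version given. The log base is not written and was taken as log2 from the range (0.561 to 13.47). Values were used as deposited, with no filter on level. The platform table named 1 gene for 16545 probe sets and several for 370, and 15290 had no entry. Of the identifiers, 15820 matched the reference table UU_Cfam_GSD_1.0, with 0 differing symbols.

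limma 3.58.1 (R 4.3.3) fitted 1 coefficient per group to all 9 arrays, with 6 residual and 2.41 prior degrees of freedom, and Benjamini-Hochberg adjustment of p-values ran across the whole table. Called means an adjusted p under 0.05. The fit was tested on simulated data. The number of arrays limits the precision. The members and lists were chosen with earlier results of these data known. Named genes are all members, the 4 called genes of largest difference per list and comparison, and the 5 genes nearest to SELENOP, with further genes marked in the text. Alternatives changed variance moderation, scaling, the filter, array weights, the replicate block and the arrays included. Deviations from the group means correlated at -0.045 to 0.145 between same-numbered arrays and at -0.144 to 0.096 between differently numbered ones. Same-numbered Fibroblast and SKN arrays gave 0.145, 0.045 and 0.048. The numbers were not taken as pairs, and these values do not exclude a shared dog or batch.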

Additional observations from a re-analysis of the deposited data

How the results depend on the processing

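Of 315 counts recomputed, 278 stayed within 1.5 times the reported count, and of 1569 values of single genes 1495 kept their side of the threshold, 56 lost the call, 18 gained it and 0 called values reversed. SELENOP minus Fibroblast ranged from 4.67 to 5.53 in SKN and from 4.01 to 5.12 in Brain over removals of 1 array. Leaving out Fibroblast 1 and Brain 3 gave 341, 2425 and 2314 genes called for SKN minus Fibroblast, Brain minus Fibroblast and SKN minus Brain. In Brain minus Fibroblast it gave 0 members, 4 selenium incorporation and transport genes, 9 thioredoxin, glutathione and NRF2 (thiol) genes, 3 degradation genes and 2 thyroid hormone genes, and in SKN minus Fibroblast 1 thiol gene. Fewer arrays entered these fits. Without variance moderation 326 genes were called in SKN minus Fibroblast. With array weights 1 other selenoprotein and 1 thiol gene were called there, and 1 member (TXNRD1), 4 other selenoproteins and 8 incorporation and transport genes in SKN minus Brain. With only the probe sets of higher mean, 1 other selenoprotein and 1 thiol gene were called in SKN minus Fibroblast and 1 member in SKN minus Brain. Fewer probe sets entered that fit. The cause of these changes was not tested.

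Removing 1 array at a time gave 340 to 750 genes in SKN minus Fibroblast (340 without Fibroblast 3, 410 without SKN 1, 414 without SKN 3, 450 without Fibroblast 2), and 0 to 1 for its other selenoproteins (1 without SKN 2), thiol genes (1 without Fibroblast 1, Fibroblast 2 or Brain 2), degradation genes (1 without Fibroblast 1) and thyroid hormone genes (1 without SKN 3). It gave 2 to 5 other selenoproteins in Brain minus Fibroblast (2 without Fibroblast 3, Brain 2 or Brain 3) and 3 to 6 thyroid hormone genes (3 without Fibroblast 1, Fibroblast 3 or Brain 2). In SKN minus Brain it gave 0 to 1 members (1 without Brain 1), 3 to 6 incorporation and transport genes (3 without SKN 3) and 4 to 7 degradation genes (4 without SKN 3). With the replicate block no count moved by over 1.5 times, TXNRD1 in Brain minus Fibroblast stayed called (-1.31, adjusted p = 0.0274), and SELENON (0.0869) and AUP1 (0.0741) in that comparison and UBXN8 in SKN minus Brain (0.0547) lost their calls.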
